A study of Mus musculus with 6 samples.

Results

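Killer cell lectin-like receptors are C-type lectin-like membrane proteins that were first described on natural killer (NK) cells, and some of their genes are also transcribed in conventional dendritic cells. Their genes were followed here in type 2 conventional dendritic cells (cDC2s) of mouse spleen with and without the transcription factor IRF4. They were taken as the rows of the deposited count table whose symbol begins with Klr, a further letter and a digit, with at least 10 counts summed over the 6 libraries. Of 14535 rows, 16 had such a symbol and 15 reached that sum. The members were thus selected on symbol and summed count. The sum does not compare the genotypes, but the family was proposed with the genotype difference already seen. The members' differences are therefore given as a description, and their calls are read only beside the share of all genes called.

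RNA of cDC2s was sequenced from 3 IRF4-deficient and 3 wild-type (WT) samples of C57BL/6 mice. The IRF4-deficient samples carry CD11c-Cre and Irf4fl/fl. Cre recombinase, driven from the CD11c (Itgax) promoter, removes the loxP-flanked part of Irf4 in cells that express CD11c. WT samples are labelled only as WT, and no group carries Cre without the deletion, so an effect of Cre cannot be told apart from that of losing Irf4. Neither the sort gate, the age of the mice, nor whether each replicate was a separate animal or pool is given in the labels. The p-values therefore reflect library-to-library spread, part of which could be technical.

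Totals ran from 7949462 to 10609420 counts in IRF4-deficient libraries and from 7421605 to 11459920 in WT libraries. Irf4 itself had 90.8, 65.3 and 84.0 CPM (reads of the gene relative to a TMM-scaled library size) in IRF4-deficient replicates 1 to 3, against 291.8, 295.8 and 345.0 CPM in WT replicates 1 to 3, so every library matched its label. All 11 defining genes of conventional dendritic cells and cDC2s that were looked up had counts, with Clec10a the lowest at 3.54 CPM in IRF4-deficient cells against 3.50 CPM in WT cells. Of 11934 genes that passed edgeR's filter on low counts, 20.4% had a Benjamini-Hochberg adjusted p under 0.05, the threshold for a call, with 9.87% higher and 10.5% lower in IRF4-deficient cells. Of the 11 defining genes, 5 were called lower (Cd4, Cd209a, Zbtb46, Flt3 and H2-Aa) and 2 higher (Itgam and Itgax).

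Some killer cell lectin-like receptors carry a tyrosine-based inhibitory motif that recruits phosphatases such as SHP-1 (Ptpn6), others pair with an activating adaptor such as DAP12 (Tyrobp) or DAP10 (Hcst), and some, such as CD94 and KLRE1, act through a partner receptor. Many family members recognise class I or class I-like molecules, and the NKR-P1 (Klrb1) branch recognises lectins of the Clec2 group. KLRI1 and KLRI2 were described in rodent NK cells as alternative partners of KLRE1, the KLRI1 complex as inhibitory and the KLRI2 complex as activating. Most of these genes lie together on chromosome 6 in the natural killer gene complex.

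Klri1 and Klri2 had the largest falls among the tested members. Klri1 had 31.5, 28.5 and 36.3 CPM in IRF4-deficient replicates 1 to 3, against 278.0, 264.1 and 295.8 CPM in WT replicates 1 to 3. The lowest WT library lay far above the highest IRF4-deficient library, and the gene averaged 32.1 ± 3.91 CPM in IRF4-deficient cells against 279.3 ± 15.9 CPM in WT cells (SD, n = 3 each). The log2 fold change was -3.12 (standard error, SE, 0.11), and the remaining level was 11.5% of that in WT, with a 95% interval of 9.79 to 13.5%. Counted from the lowest log2 fold change, Klri1 was number 27 of the 11934 tested genes.

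Klri2 had 39.4, 50.9 and 42.0 CPM in IRF4-deficient replicates 1 to 3, against 123.4, 123.4 and 119.7 CPM in WT replicates 1 to 3. Again the groups did not overlap, and the averages were 44.1 ± 6.05 CPM in IRF4-deficient cells against 122.1 ± 2.14 CPM in WT cells. The log2 fold change was -1.47 (SE 0.12), and the remaining level was 36.0% of that in WT (95% interval 30.2 to 42.9%). In a bulk sample, fewer cells that express a gene and less of its RNA per cell cannot be told apart. Some of the markers that define or subdivide conventional dendritic cells and cDC2s differed too, in both directions. Cd4 averaged 131.3 ± 21.9 CPM in IRF4-deficient cells against 554.8 ± 20.6 CPM in WT cells, and Cd209a 128.6 ± 21.3 CPM in IRF4-deficient cells against 317.8 ± 36.5 CPM in WT cells. The dendritic cell factor gene Zbtb46 fell 1.92-fold and the growth factor receptor gene Flt3 fell 1.65-fold, while Itgam (CD11b) rose 3.03-fold. Sirpa, Clec4a4, Clec10a and Esam were not called. Esam averaged 33.3 ± 9.58 CPM in IRF4-deficient cells against 37.7 ± 3.77 CPM in WT cells. The part of the cell makeup in the values of Klri1 and Klri2 was not tested.

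**Figure D1:**
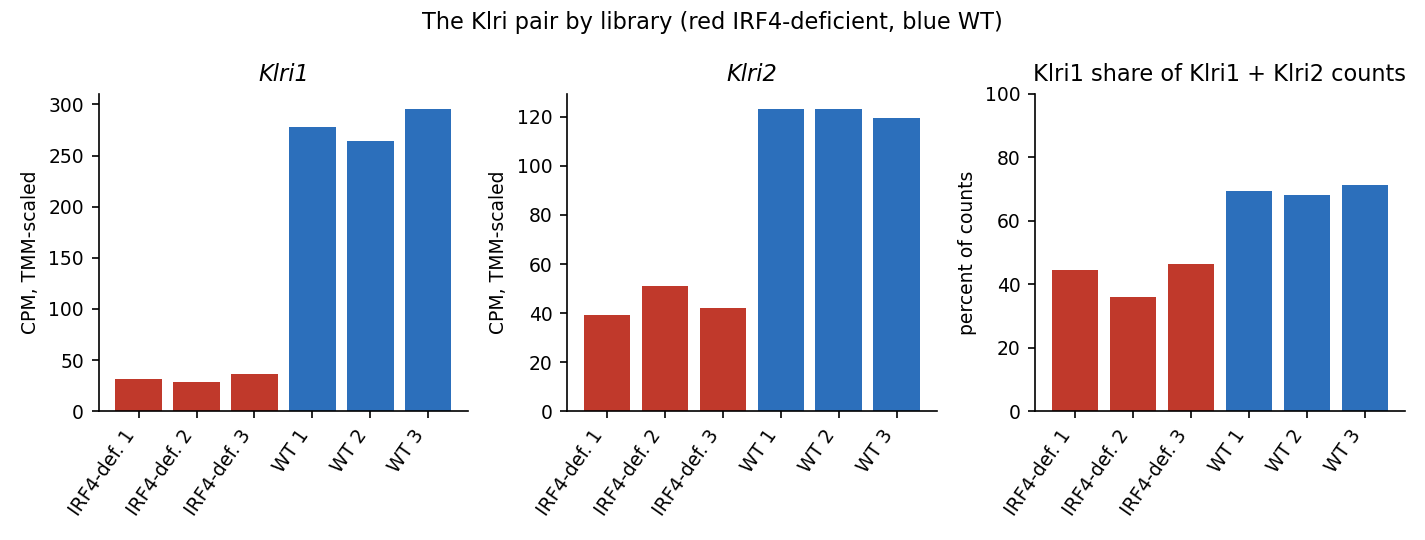
CPM of Klri1 and of Klri2 (left and middle, vertical axes from 0) and the percent of their joint counts that fell on Klri1 (right), with 1 bar for each IRF4-deficient (red) and WT (blue) library. Every IRF4-deficient bar is lower than every WT bar in each panel, and the Klri1 share lies between 35.9 and 46.4% in IRF4-deficient and between 68.2 and 71.2% in WT libraries.

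The balance within the pair differed as well, since Klri1 fell further than Klri2. Of the counts on both genes, Klri1 held 44.4, 35.9 and 46.4% in IRF4-deficient replicates 1 to 3, against 69.3, 68.2 and 71.2% in WT replicates 1 to 3. Klri1 had the higher count of the pair in every WT library, and Klri2 in every IRF4-deficient library. The pair together held 21.9 ± 2.98% of all counts on the 15 family members in IRF4-deficient cells and 59.6 ± 2.70% in WT cells (SD, n = 3 each). These shares rest on the same contrast and were not tested.

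The genes are neighbours and near relatives. On GRCm38, Klri1 (ENSMUSG00000067610.1) lies on the minus strand of chromosome 6 at 129697218 to 129717132, and Klri2 (ENSMUSG00000043932.5) on the same strand at 129729041 to 129740484. Each has 1 annotated transcript with 6 exons and a coding length of 744 bases, and their starts are 23.4 kb apart. The best local alignment of the transcripts covers 684 bases at 88.2% identity. The longest run identical in both is shown because a read that falls wholly inside it cannot be given to either gene. It crosses from exon 4 to exon 5 within the coding sequence of each, and it spans 129698222 to 129698825 in Klri1 and 129733062 to 129733674 in Klri2 (GENCODE M21, read in the sense of the genes, intron left out).
Klri1 and Klri2 shared run: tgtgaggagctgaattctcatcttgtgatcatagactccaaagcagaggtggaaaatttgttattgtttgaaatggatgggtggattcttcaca

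That run has 94 bases. Of the distinct 50-base words of the Klri1 transcript, 5.83% also occur in a transcript of another Klr gene, and 1.19% of those of Klri2 do. How the authors' counting treated reads that match both genes is not given in the sources used here, so a small part of either count is uncertain.

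The promoter of Klri1 is shown because this gene had the largest fall of the family. That of Klrk1, a neighbour on the same strand that was not called, stands beside it. The windows come from RefSeq on GRCm38.p6, cover 250 bases before to 50 after the annotated start and run in the sense of the gene. Klri1 is at chr6:129717083-129717382 and Klrk1 at chr6:129623815-129624114, both on the minus strand. Capitals mark matches, on either strand, to the ETS-IRF composite element GGAANNGAAA, which PU.1 and IRF4 or IRF8 are known to bind together, and to the AP-1 site TGANTCA.
Klri1 promoter: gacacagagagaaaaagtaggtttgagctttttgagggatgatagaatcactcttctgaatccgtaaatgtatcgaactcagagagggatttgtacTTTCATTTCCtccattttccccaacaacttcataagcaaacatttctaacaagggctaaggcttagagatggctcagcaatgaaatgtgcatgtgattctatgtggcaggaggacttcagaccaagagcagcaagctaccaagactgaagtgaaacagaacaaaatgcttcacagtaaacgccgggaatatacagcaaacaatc
Klrk1 promoter: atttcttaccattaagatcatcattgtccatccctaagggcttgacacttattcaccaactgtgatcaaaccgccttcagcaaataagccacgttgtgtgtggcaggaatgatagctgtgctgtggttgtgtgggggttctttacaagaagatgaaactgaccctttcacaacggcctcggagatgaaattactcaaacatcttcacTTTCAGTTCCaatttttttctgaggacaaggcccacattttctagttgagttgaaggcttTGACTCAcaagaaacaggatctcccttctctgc

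In Klri1 the composite element occurs once in the reverse sense, at bases 97 to 106 of the window, and neither TGANTCA, the interferon-type element GAAANNGAAA nor the ETS site AGGAAGT was found. Klrk1 holds the composite element at bases 208 to 217 and TGANTCA at bases 268 to 274. Of 27025 promoter windows of the same length, 2.79% hold the composite element and 7.93% hold TGANTCA. For GAAANNGAAA the share is 3.49% and for AGGAAGT 9.57%. A window (the first listed, where a gene had several) was given for 12 of the 15 members, and Klri2, Klrd1 and Klrg1 had none. In the other 10 windows the composite element was not found. The windows of Klra5, Klrb1c and Klre1 lie wholly inside the gene as annotated in GENCODE, and that of Klra3 lies wholly outside it. For these genes the windows do not show the bases around the GENCODE start. These matches describe letters and not occupied sites, and the gene without a called difference had the composite element too.

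KLRE1 is the described partner of both KLRI proteins, and its gene was nearly silent. Klre1 had 2.12, 2.47 and 1.11 CPM in IRF4-deficient replicates 1 to 3, against 4.84, 1.91 and 1.78 CPM in WT replicates 1 to 3. It was not called, and the groups overlap (log2 fold change -0.56, SE 0.54, 95% interval -1.70 to 0.58). Per kb of annotated exon, Klre1 averaged 0.544 ± 0.202 CPM in IRF4-deficient cells against 0.813 ± 0.496 CPM per kb in WT cells, while Klri1 averaged 38.3 ± 4.67 CPM per kb in IRF4-deficient cells against 333.3 ± 19.0 CPM per kb in WT cells.

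Klrb1f encodes NKR-P1F, a receptor of the NKR-P1 branch that binds the Clec2 lectin Clr-g (Clec2i), and was the third member called. It had 22.1, 21.4 and 20.4 CPM in IRF4-deficient replicates 1 to 3, against 41.2, 47.6 and 42.5 CPM in WT replicates 1 to 3. All IRF4-deficient libraries were below all WT libraries. The log2 fold change was -1.04 (SE 0.15), and the remaining level was 48.6% of that in WT (95% interval 39.1 to 60.4%). Klrb1b, whose product NKR-P1B is inhibitory and binds Clr-b (Clec2d), had 3.77, 7.17 and 4.57 CPM in IRF4-deficient replicates 1 to 3, against 2.35, 3.73 and 3.41 CPM in WT replicates 1 to 3. Here the IRF4-deficient libraries were above the WT libraries by a narrow margin at low counts, and the gene was not called (log2 fold change 0.69, 95% interval -0.16 to 1.54). Klrb1c, the gene of the NK1.1 antigen, had 26 counts in the IRF4-deficient libraries together and 21 in the WT libraries together.

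Klrd1 and Klrk1 were not called. Klrd1 encodes CD94, which pairs with NKG2 proteins, and had 150.1, 135.5 and 214.0 CPM in IRF4-deficient replicates 1 to 3, against 165.4, 162.8 and 136.2 CPM in WT replicates 1 to 3. The groups overlap, and only IRF4-deficient replicate 3 lies above every WT library. Its log2 fold change was 0.10 (95% interval -0.21 to 0.42), and -0.12 without that replicate. Klrc1, the gene of the inhibitory CD94 partner NKG2A, had 15 counts in the IRF4-deficient libraries together and 14 in the WT libraries together, so CD94 transcripts were abundant where those of this partner were scarce. Of the 50-base words of Klrc1, 38.6% also occur in another Klr transcript, so its count is uncertain.

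Klrk1 encodes NKG2D, an activating receptor for stress-induced class I-like ligands. It had 28.4, 34.7 and 41.6 CPM in IRF4-deficient replicates 1 to 3, against 29.3, 32.1 and 28.3 CPM in WT replicates 1 to 3. Replicate 1 of the IRF4-deficient group lies among the WT values and the other IRF4-deficient libraries above them, and the log2 fold change was 0.22 (95% interval -0.13 to 0.57).

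Among the Ly49 genes (Klra), Klra17 encodes Ly49Q, an inhibitory receptor known from plasmacytoid dendritic cells. It had 19.2, 19.7 and 31.4 CPM in IRF4-deficient replicates 1 to 3, against 13.1, 16.5 and 18.2 CPM in WT replicates 1 to 3. The groups do not overlap, but the gap between them is small beside the height of IRF4-deficient replicate 3. The gene was not called (log2 fold change 0.55, 95% interval before adjustment 0.09 to 1.01), and without that replicate the log2 fold change was 0.28. Klra2, which encodes Ly49B, known from myeloid cells, had 15.8 ± 0.874 CPM in IRF4-deficient cells against 16.3 ± 4.98 CPM in WT cells (log2 fold change -0.04, 95% interval -0.53 to 0.44). Klra3, the Ly49C gene, averaged 3.11 ± 0.990 CPM in IRF4-deficient cells against 2.21 ± 0.617 CPM in WT cells and was not called. Of its 50-base words 20.7% also occur in another Klr transcript, most closely that of Klra10, so its count is uncertain.

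IRF4-deficient replicate 3, the highest library for Klrd1, Klrk1 and Klra17, was also the highest in the summed levels of red pulp macrophage genes and of T cell genes. For 12 red pulp macrophage genes the sum came to 1783, 2508 and 3294 CPM in IRF4-deficient replicates 1 to 3, against 1010 to 1349 CPM in WT libraries. Without Vcam1, left out after its values were seen, the sum was 1119 to 2188 CPM in IRF4-deficient libraries against 666.0 to 827.3 CPM in WT libraries. For 15 T cell genes the sum came to 238.1, 216.3 and 298.2 CPM in IRF4-deficient replicates 1 to 3, against 152.4 to 171.1 CPM in WT libraries. For 10 plasmacytoid dendritic cell genes it came to 694.4, 679.9 and 785.2 CPM in IRF4-deficient replicates 1 to 3, against 494.8 to 562.3 CPM in WT libraries, but most of that gap was Runx2. Without Runx2, left out after its values were seen, the sums were 339.0 to 366.2 CPM in IRF4-deficient libraries against 307.5 to 373.8 CPM in WT libraries, and they overlap. In this list 3 genes were called higher (Runx2, Cox6a2 and Siglech) and 1 lower. The lower one, the chemokine receptor gene Ccr9, had 48.0 ± 3.68 CPM in IRF4-deficient cells against 79.6 ± 15.6 CPM in WT cells. Ccr9 stayed in the sums without Runx2, where its fall offset rises of other genes. The defining marker Siglech had 6.35, 8.77 and 7.46 CPM in IRF4-deficient replicates 1 to 3, against 3.46, 1.27 and 4.78 CPM in WT replicates 1 to 3. Its call was lost without IRF4-deficient replicates 2 or 3 or WT replicates 1 or 2 (edgeR adjusted p 0.108, 0.0594, 0.0638 and 0.164). None of the genes of these lists was at 0 in all libraries. The part of these cells in the values of Klrd1, Klrk1 and Klra17 was not tested.

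**Figure D2:**
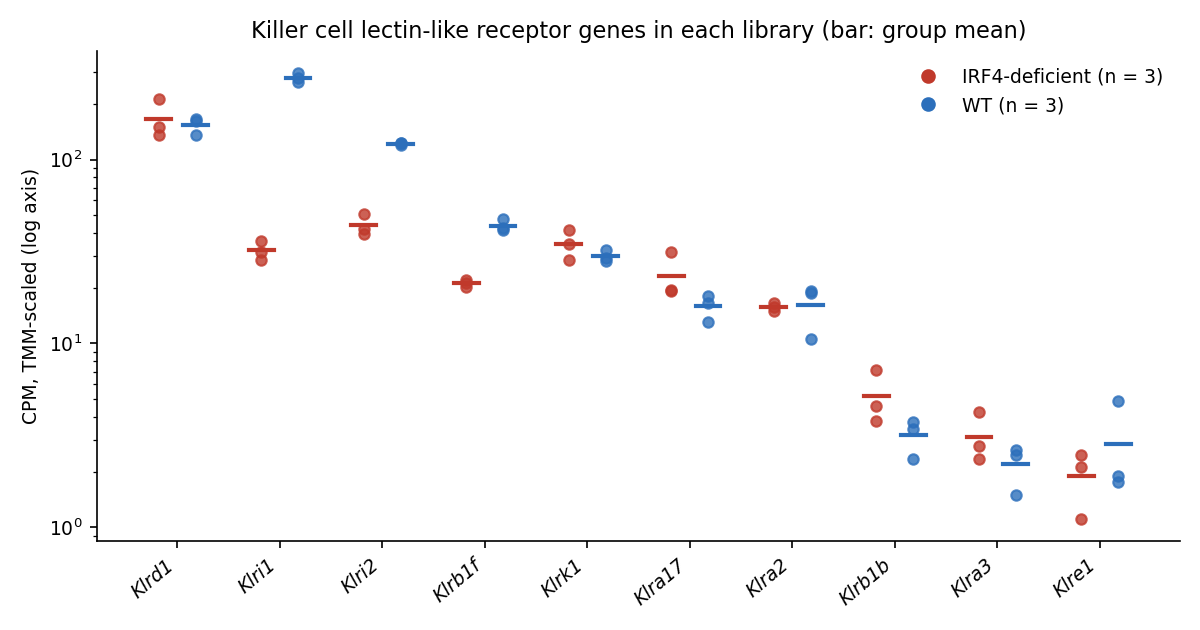
CPM of the 10 tested family members in each IRF4-deficient (red, left of each pair) and WT (blue, right) library on a log axis, with a bar at each group mean and genes in order of mean CPM. The groups are clearly apart for Klri1, Klri2 and Klrb1f, and IRF4-deficient replicate 3 is the top point of Klrd1 at 214.0 CPM and of Klra17 at 31.4 CPM.

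Of the 15 members, 10 passed the filter on low counts, and the other 5 (Klra5, Klrb1c, Klrc1, Klrg1 and Klrg2) had between 29 and 47 counts in all. Of these, Klra5 had 16 counts in the IRF4-deficient libraries together and 19 in the WT libraries together, and Klrg2 had 24 in the IRF4-deficient libraries together and 23 in the WT libraries together. Just inside the minimum of 10 counts was Klrc1 with 29, and outside it was Klrb1a with 5. Of the tested members, 3 were called lower and 0 higher by edgeR, by DESeq2 and by limma-voom alike. The called share is 30.0%, beside 20.4% of all tested genes called in either direction and 10.5% called lower. At an unadjusted edgeR p under 0.05, 1 further member was higher (Klra17). Nothing is read from these counts, since the family was proposed with them known. The median log2 fold change was 0.03 over the tested members and 0.0025 over all tested genes. Groups of libraries did not overlap for 5 tested members, 3 of them lower and 2 higher in IRF4-deficient cells, while 35.6% of all tested genes did not overlap in either direction. The summed level of the members other than the Klri pair came to 246.1, 243.2 and 340.0 CPM in IRF4-deficient replicates 1 to 3, against 281.3, 288.2 and 248.5 CPM in WT replicates 1 to 3, and those ranges overlap.

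Levels of different genes can be ordered only per length. In IRF4-deficient cells, CPM per kb of annotated exon ran from Klrd1 (129.99 ± 32.6) over Klri1 (38.3 ± 4.67), Klra17 (19.7 ± 5.79), Klri2 (11.3 ± 1.55), Klrb1f (10.5 ± 0.425), Klra2 (8.34 ± 0.460) and Klrk1 (4.86 ± 0.919) to Klra3, Klrb1b and Klre1 (SD, n = 3 each). The library values of Klri2 and Klrb1f overlapped there, as did those of Klra3 and Klrb1b, and no other neighbours did. In WT cells, CPM per kb ran from Klri1 (333.3 ± 19.0) over Klrd1 (120.8 ± 12.6), Klri2 (31.2 ± 0.548), Klrb1f (21.6 ± 1.68), Klra17 (13.4 ± 2.15), Klra2 (8.57 ± 2.62) and Klrk1 (4.16 ± 0.275) to Klra3, Klrb1b and Klre1, whose values overlapped from each to the next. Klri1 thus led in WT cells and Klrd1 in IRF4-deficient cells. The place of Klri2 depends on its annotated length of 3913 bases, of which 3103 lie after the coding sequence. In Klri1, 84 of 838 bases lie there. The place of Klrk1 rests on 7183 bases of exon joined over 6 transcripts, and that of Klre1 on 3494 bases over 3 transcripts.

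The surroundings of the pair show which other genes of the complex moved. Between Klrb1a and Klra2, a stretch of 2.64 Mb on chromosome 6 (128609227 to 131247362), 25 table rows were tested, of which 8 were called lower and 3 higher. The 25 include the tested family members counted above. Over all tested genes, 10.5% were called lower and 9.87% higher, and the counts of the lists below stand beside the same shares. Among the 15 tested rows of the stretch that carry no Klr name, 5 were lower and 3 higher. The lower ones were Clec2i, Clec2g and Clec2d with BC035044 and Gm15987. The last pair are known here only by clone or model names and were chosen for naming after their values were seen. All 5 lie on the side of Klrb1f, between 829.5 and 536.5 kb before the start of Klri1 on the chromosome. Closer to Klri1, Klrd1 and Klrk1 on one side and Klra17 on the other were not called, so the called falls were not a single unbroken block.

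The 3 called higher were C-type lectin genes that lie between these groups. Clec9a, the receptor for exposed actin by which type 1 conventional dendritic cells (cDC1s) recognise dead cells, had 81.8 ± 17.7 CPM in IRF4-deficient cells against 47.8 ± 7.70 CPM in WT cells. Clec12a, an inhibitory receptor, had 52.7 ± 10.8 CPM in IRF4-deficient cells against 28.1 ± 7.53 CPM in WT cells. Cd69, an early activation antigen, had 5.21 ± 1.54 CPM in IRF4-deficient cells against 1.51 ± 0.250 CPM in WT cells. Of 8 cDC1 markers, Clec9a included, 6 were called higher and 1 lower, and their summed level was 310.7 to 419.5 CPM in IRF4-deficient libraries against 237.9 to 246.4 CPM in WT libraries. Without Irf8, left out after its values were seen, the sum was 203.3 to 279.9 CPM in IRF4-deficient libraries against 183.5 to 198.2 CPM in WT libraries. The part of cDC1s in these values was not tested.

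**Figure D3:**
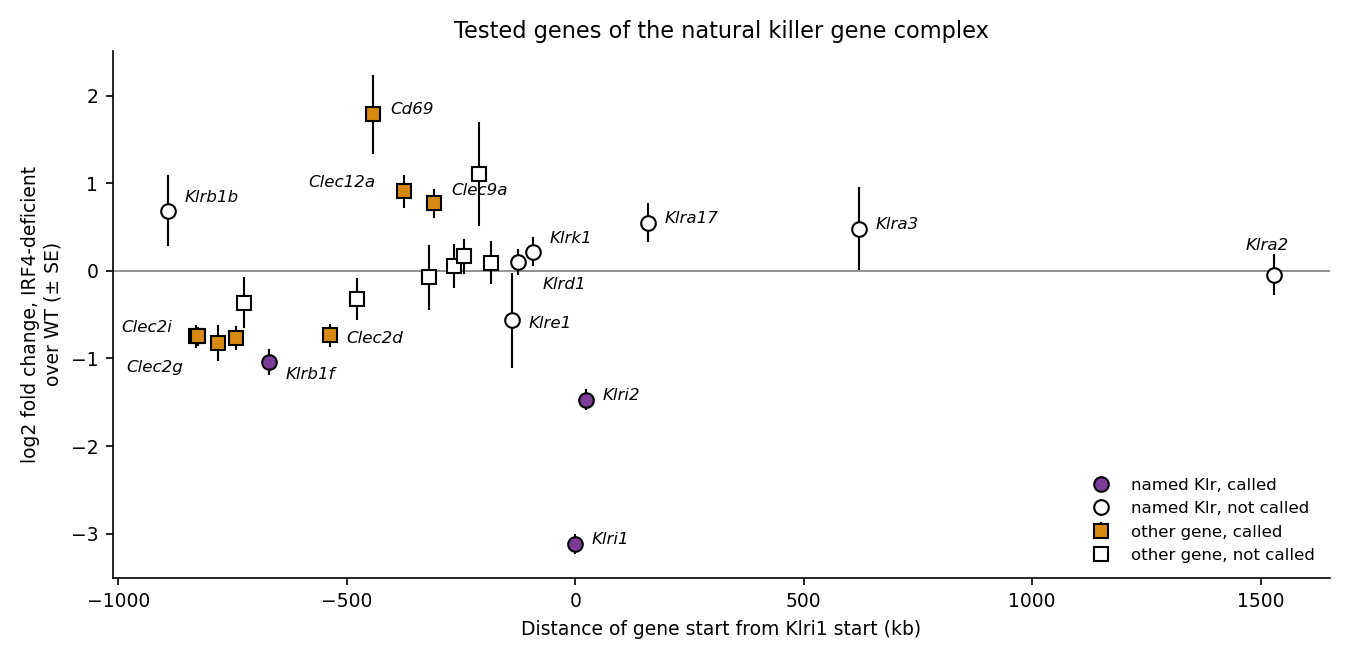
Log2 fold change of IRF4-deficient over WT (± SE) for the 25 tested genes of the natural killer gene complex, against the distance of each gene's start from that of Klri1 in kb. Circles are genes named Klr and squares other genes, and filled symbols were called by edgeR. Klri1 at -3.12 and Klri2 at -1.47 are the lowest points, Klrb1f lies among called Clec2 genes near -0.75, and Klrd1 and Klrk1 lie near 0.

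Ligand genes were read from a list of 20, of which 9 were in the table and 7 tested, with 4 called lower and 1 higher and a median log2 fold change of -0.38. The lower ones include Clec2d and Clec2i, ligand genes of the NKR-P1 branch. The Clec2 genes Clec2e, Clec2f, Clec2h and Clec2j of the list were not in the table. Clec2d (Clr-b) had 102.3, 123.8 and 144.0 CPM in IRF4-deficient replicates 1 to 3, against 171.6, 205.8 and 237.1 CPM in WT replicates 1 to 3 (log2 fold change -0.73, SE 0.13, edgeR adjusted p = 0.000679). The groups do not overlap, although the highest IRF4-deficient library comes close to the lowest WT library. Clec2i (Clr-g) averaged 42.1 ± 2.73 CPM in IRF4-deficient cells against 70.6 ± 6.94 CPM in WT cells, so that Klrb1f and this ligand gene were both lower. Clec2g, another Clec2 lectin gene, averaged 17.5 ± 4.68 CPM in IRF4-deficient cells against 30.9 ± 5.11 CPM in WT cells. H2-T23, which encodes the Qa-1 molecule that CD94 and NKG2A recognise, fell 1.30-fold (edgeR adjusted p = 0.00636, and 0.0541 without WT replicate 2).

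Of the genes for NKG2D ligands, H60b (22.5 CPM in IRF4-deficient cells against 29.1 CPM in WT cells) and Ulbp1 (11.8 CPM in IRF4-deficient cells against 11.1 CPM in WT cells) were tested and neither was called. The ligand gene called higher was Cdh1 (E-cadherin, bound by KLRG1). It had 22.5, 20.02 and 21.4 CPM in IRF4-deficient replicates 1 to 3, against 2.07, 1.82 and 2.32 CPM in WT replicates 1 to 3, a 10.3-fold higher level (log2 fold change 3.37, SE 0.26, edgeR adjusted p = 2.29e-08). Klrg1, the gene of its receptor, had 33 counts in the IRF4-deficient libraries together and 12 in the WT libraries together, and was too low to be tested.

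The genes that act below these receptors were mostly well expressed in both groups. In a list of 22 adaptors, kinases and phosphatases, 20 were tested, of which 6 were called higher and 3 lower, with a median log2 fold change of 0.12. Without WT replicate 2, 4 were called higher and 1 lower. Tyrobp, the DAP12 adaptor, had 588.3 ± 24.5 CPM in IRF4-deficient cells against 514.8 ± 57.3 CPM in WT cells, and Hcst, the DAP10 adaptor through which NKG2D signals, had 8.71 ± 2.97 CPM in IRF4-deficient cells against 7.11 ± 2.55 CPM in WT cells. Neither adaptor gene was called (edgeR adjusted p = 0.135 for Tyrobp and 0.617 for Hcst).

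Ptpn6, the SHP-1 phosphatase recruited by inhibitory members, rose to 545.2 ± 6.81 CPM in IRF4-deficient cells, against 431.8 ± 6.78 CPM in WT cells (log2 fold change 0.34, SE 0.07, edgeR adjusted p = 0.00284). Among Src family kinases, Fyn rose 1.78-fold and Fgr 1.39-fold, while Lyn had 723.8 CPM in IRF4-deficient cells against 733.4 CPM in WT cells and was not called. Plcg2, the phospholipase C that carries myeloid receptor signals, rose 1.39-fold, and Plcg1, its relative, fell 2.90-fold to 12.1 ± 2.99 CPM in IRF4-deficient cells, against 35.2 ± 1.61 CPM in WT cells. The other called genes depended on the setting. Fcer1g, the adaptor FcR gamma, averaged 934.9 ± 203.7 CPM in IRF4-deficient cells against 638.4 ± 73.9 CPM in WT cells and was not called without WT replicates 2 or 3 (edgeR adjusted p 0.0814 and 0.0576). Syk, the kinase that DAP12 recruits, averaged 444.9 ± 26.8 CPM in IRF4-deficient cells against 373.7 ± 19.5 CPM in WT cells. Inpp5d (SHIP1) averaged 290.9 ± 27.1 CPM in IRF4-deficient cells against 346.1 ± 12.9 CPM in WT cells, and Vav3 averaged 62.8 ± 8.56 CPM in IRF4-deficient cells against 83.6 ± 14.5 CPM in WT cells. Leaving out any 1 library ended the call of Syk (edgeR adjusted p 0.0535 to 0.128), except for IRF4-deficient replicate 3, and that of Inpp5d (0.0631 to 0.143), except for IRF4-deficient replicate 2. The call of Vav3, whose groups of libraries overlap, ended without IRF4-deficient replicates 1 or 3 or WT replicates 1 or 2 (0.104 to 0.238). With the replicate block, Syk (edgeR adjusted p 0.0526) and Inpp5d (0.0648) were not called. Nor was Inpp5d called in edgeR with DESeq2 size factors (0.0524), without a filter (0.0537) or without robust shrinkage (0.0628). In DESeq2 its adjusted p was 0.0532.

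NK cells are the best known source of killer cell lectin-like receptor RNA. Some of their marker genes averaged near 0 and others did not. Ncr1, the gene of the NK receptor NKp46, had 0, 0.618 and 2.12 CPM in IRF4-deficient replicates 1 to 3, against 0.277, 1.55 and 0.137 CPM in WT replicates 1 to 3. The perforin gene Prf1 averaged 0.0742 CPM in IRF4-deficient cells against 0.107 CPM in WT cells. Eomes, an NK transcription factor, was at 0 in all IRF4-deficient libraries and averaged 0.274 CPM in WT libraries. The granzyme gene Gzmb averaged 0.0824 ± 0.143 CPM in IRF4-deficient cells against 0.718 ± 0.355 CPM in WT cells, and Nkg7 averaged 0.810 ± 0.604 CPM in IRF4-deficient cells against 1.37 ± 0.850 CPM in WT cells. Of 18 NK cell and ILC1 markers without a Klr name, 12 were tested, with 4 called higher (Cd7, Tbx21, Txk and Il2rb) and 1 lower (Cd160). Tbx21 averaged 36.2 ± 5.83 CPM in IRF4-deficient cells against 13.6 ± 2.03 CPM in WT cells. Txk averaged 7.54 ± 0.171 CPM in IRF4-deficient cells against 1.55 ± 0.402 CPM in WT cells. Il2rb averaged 6.24 ± 1.68 CPM in IRF4-deficient cells against 2.36 ± 1.86 CPM in WT cells. Cd160 averaged 3.45 ± 1.23 CPM in IRF4-deficient cells against 8.58 ± 2.83 CPM in WT cells. The call of Il2rb was lost without IRF4-deficient replicates 2 or 3 or WT replicates 1 or 2 (edgeR adjusted p 0.110, 0.115, 0.145 and 0.184) and without robust shrinkage (0.0502), and that of Cd160 without IRF4-deficient replicate 1 or WT replicate 3 (0.0625 and 0.104). The list summed to 887.2 to 934.0 CPM in IRF4-deficient and 591.9 to 691.7 CPM in WT libraries. Most of that sum was Cd7 (440.8 CPM in IRF4-deficient cells against 153.3 CPM in WT cells) and Cd244 (393.9 CPM in IRF4-deficient cells against 440.2 CPM in WT cells), which other immune cells also express. Cd7 was left out after its values were seen. Without it, the list summed to 405.2 to 537.2 CPM in IRF4-deficient libraries against 435.5 to 536.8 CPM in WT libraries, and these overlap. Most of that remainder was Cd244, with 403.1, 458.3 and 320.4 CPM in IRF4-deficient replicates 1 to 3. In WT replicates 1 to 3, Cd244 had 389.0, 439.3 and 492.3 CPM. The overlap therefore says little about the less abundant markers. Of 13 tested T cell markers 5 were called higher, with a summed level of 216.3 to 298.2 CPM in IRF4-deficient libraries against 152.4 to 171.1 CPM in WT libraries. Without Tcf7, left out after its values were seen, the sum was 109.9 to 156.7 CPM in IRF4-deficient libraries against 67.5 to 81.3 CPM in WT libraries. The T cell groups thus stayed apart. Of 9 B cell markers 1 was called higher and 3 lower. Their part in the values of the family was not tested.

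**Figure D4:**
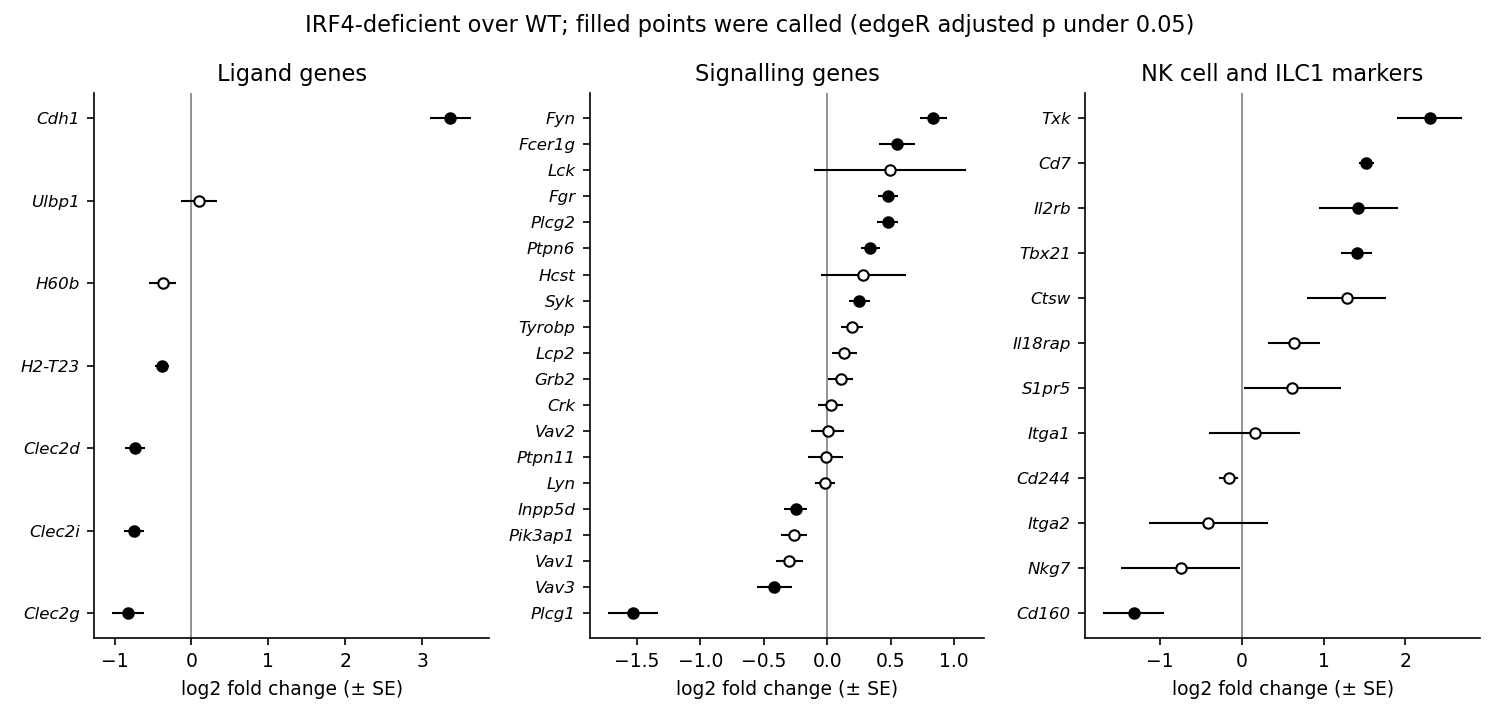
Log2 fold change of IRF4-deficient over WT (± SE) for the tested ligand genes (left), signalling genes (middle) and NK cell and ILC1 markers (right). Filled points are genes that passed edgeR's threshold. The Clec2 ligand genes lie left of 0 and Cdh1 at 3.37, the signalling genes lie within 1 of 0 apart from Plcg1 at -1.53, and the called NK markers lie right of 0 apart from Cd160 at -1.32.

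Likeness to the pair was measured as the root mean square difference between centred log2(CPM + 0.5) profiles over the 6 libraries, among 9150 other tested genes with a mean of at least 5 CPM and a gene name of their own. Closest to Klri1 were Fndc5 (0.0398), Rasgrp3 (0.120), Mmp12 (0.192), Kif17 (0.223) and Adam8 (0.236). Rasgrp3, which activates Ras proteins, had 36.8 ± 8.55 CPM in IRF4-deficient cells against 353.1 ± 19.8 CPM in WT cells. Fndc5 and Kif17 were at 0.857 and 1.01 CPM in IRF4-deficient cells, where the added 0.5 CPM narrows the difference. Closest to Klri2 were Ccnd2 (0.0885), Stom (0.103), Slc30a4 (0.108), Prr5l (0.112) and Batf3 (0.113). Ccnd2, the cyclin D2 gene, had 93.5 ± 14.7 CPM in IRF4-deficient cells against 257.0 ± 30.6 CPM in WT cells. Klri1 and Klri2 differed from each other by 0.843 on this scale, so neither was among the closest to the other. The measure takes in the difference between the genotypes that led to the family being proposed, so it is a description.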

How the data were processed

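For 6 libraries the authors deposited a single file of raw counts, 1 row per gene symbol. Per the submitters' processing notes, STAR, HTSeq and DESeq2 were used with mm10. Versions, annotation, strand setting and row filter are not given in these sources, so reads of overlapping or antisense genes cannot be told apart. WT columns were matched to samples through the labels' source names, and no column was left unused.

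Counts were filtered with filterByExpr, scaled by TMM and tested with edgeR 4.0.16 (glmQLFit with robust shrinkage and glmQLFTest, two-sided, R 4.3.3), with Benjamini-Hochberg adjustment over 11934 genes. A prior count of 0.125 enters the fold changes. The SE is derived from the F statistic, and intervals are at the 95% level. Replicates differed beyond counting noise (chi-square per degree of freedom 7.66 to 15.9), and each library was treated as 1 replicate. That spread does not tell whether the libraries came from separate animals or pools. The script was tested on simulated data.

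The members and gene lists were chosen with earlier results of these data known, and lists are described by counts and medians only. A gene of the signalling list is not reported here and is left out of its counts. Named are all members, the 5 nearest profiles to Klri1 and Klri2, and list genes drawn from the 5 smallest p per list or those of at least 20 CPM. Clec10a, Ulbp1, Hcst, Ncr1, Prf1, Eomes, Gzmb and Nkg7 fall outside that rule and were named after their values were seen. Locations and lengths come from GENCODE M21, and promoters from RefSeq. Alternatives were DESeq2 1.42.0, limma-voom (limma 3.58.1), other scalings and filters, no robust shrinkage, a replicate block and leaving out each library.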

Additional observations from a re-analysis of the deposited data

How the results depend on the processing

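The same 3 family members (Klri1, Klri2 and Klrb1f) were called, and no other, under all 14 alternatives. Over these, the log2 fold change ran from -3.22 to -3.04 for Klri1, from -1.58 to -1.39 for Klri2 and from -1.08 to -0.98 for Klrb1f. Among the uncalled members, the sign changed for Klrd1 (-0.12 without IRF4-deficient replicate 3), Klre1 (0.04 without WT replicate 1) and Klra2 (0.09 without WT replicate 1). Signalling genes called numbered 9, and between 5 and 9 when 1 library was left out and fewer samples entered the fit. The lowest count, 5, was that without WT replicate 2. Genes called over the whole table numbered 2429, and 1779 to 2513 over the alternatives. The labels tie equal replicate numbers to no common source, and deviations of equally numbered libraries correlated at -0.0048, 0.0512 and -0.0106. Deposited column numbers pair IRF4-deficient replicate 2 with WT replicate 1 (-0.0172) and IRF4-deficient replicate 3 with WT replicate 2 (-0.0097). With the replicate number as a block, 2267 genes were called in all, 7 of the signalling genes and the same 3 family members. Klri1, Klri2 and Klrb1f rest on 899 to 7081, 1217 to 3125 and 596 to 1133 counts per group, while members under about 5 CPM have wide intervals, and differences between the groups in them were often not detectable at this depth.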
